A study of Mus musculus with 2 samples.

Results

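The genes described here are 9 genes of the myelin sheath, Mbp, Mobp, Mog, Mag, Cnp, Mal, Cldn11, Ermn and Opalin, out of 15474 genes counted in single cells of the mouse dentate gyrus. They were chosen by name, all 9 were counted, and their counts were followed through all annotated cells and through the barcodes that did not become cells in the filtering of the study. Cells of C57BL/6J mice aged 4 to 5 weeks were dissociated, pooled, sorted into plates and sequenced by SORT-seq, in which a barcode marks the well a molecule came from and molecules are counted at their 3′ end by unique molecular identifiers (UMIs). One plate of 384 barcodes held fresh cells from a pool of 3 mice, sorted with a dead cell stain, and one plate of 384 barcodes held MeOH-fixed cells from a pool of 4 mice, stored for 3 weeks at low temperature and sorted without that stain. The comparison asks how methanol fixation and storage bear on the counts, and with 1 library per condition no difference has a replicate check, so no test was made.

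Myelin is the multilayered membrane that oligodendrocytes wrap around axons. Oligodendrocyte progenitor cells (OPCs) divide, leave the cycle, pass through a short stage as newly formed oligodendrocytes and then turn on the myelin programme in steps, with the transcription factors Sox10 and Myrf acting on many of its genes. The members hold different places in the sheath. Mbp encodes the basic protein that draws the inner membrane faces together, and its mRNA is carried along the processes and translated at the sheath. Mobp encodes a further small basic protein of compact myelin. Mag, an adhesion molecule that faces the axon, Cnp, a phosphodiesterase of the cytoplasmic channels, and Cldn11, the tight junction protein between myelin layers, serve contact and structure. Mog lies on the outermost surface, Mal is a proteolipid of membrane trafficking, Ermn a cytoskeletal protein and Opalin a transmembrane glycoprotein of oligodendrocytes.

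The filtered cells numbered 64 on the fresh and 132 on the MeOH-fixed plate. Of these, 2 fresh and 13 MeOH-fixed cells were annotated as oligodendrocytes, with 24310 and 90710 UMIs in all, and 5 and 10 as OPCs. The barcodes left out by the filter are called failing barcodes below and numbered 320 and 252, with 140164 and 83655 UMIs. Not all of them were shallow. The deepest fresh failing barcode held 45332 transcripts, above the upper limit of 35000 in the filter, out of 141690 in all fresh failing barcodes. The deepest on the MeOH-fixed plate held 2934. Levels are given as CPM, the transcripts of a gene scaled to a total of 1000000 transcripts over the cells summed, with exact 95% Poisson intervals that cover counting error only. As a molecule is counted once whatever its length, CPM was compared between genes without division by length. The annotation was made by clustering these cells on genes that include the members, so that a high level in oligodendrocytes is a description. All 8 genes of the oligodendrocyte marker list, 5 of them members, were counted in the oligodendrocytes of both plates, where the microglial list had 1 and 8 UMIs, the endothelial list 1 and 9, the list of astrocytes and radial glia-like cells (RGLs) 2 and 43, and the OPC list 70 and 284. Within the OPC list, Olig1 gave 38 and 136 of these UMIs and Sox10 32 and 146. Cspg4, C1ql1 and Neu4 were at 0 on both plates, and Pdgfra and Lhfpl3 on the fresh plate. The list of immature neurons had 18 and 65 UMIs, or 729 and 710 CPM, beside 1537 and 2010 CPM in the immature neurons themselves, and 5 of its 6 genes were at 0 in the fresh oligodendrocytes. The part of these markers in the results was not tested.

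The regulatory sequence of 3 members is shown because these genes stand on both sides of the order described below, Cnp and Mag among the genes high in every oligodendrocyte and Mobp among those low in some. The 250 bases before the transcription start are given 5′ to 3′ on the gene's strand, from RefSeq on GRCm38.p6, with matches to ACAAAG, the core bound by Sox factors, and to CTGGCAC or CTGGTAC, the core of the Myrf site, in capitals. Both strands were searched, so that a match on the other strand reads CTTTGT or the reverse complement of the Myrf core, and the matches did not overlap each other.
Cnp, chr11:100574689-100574938, plus strand: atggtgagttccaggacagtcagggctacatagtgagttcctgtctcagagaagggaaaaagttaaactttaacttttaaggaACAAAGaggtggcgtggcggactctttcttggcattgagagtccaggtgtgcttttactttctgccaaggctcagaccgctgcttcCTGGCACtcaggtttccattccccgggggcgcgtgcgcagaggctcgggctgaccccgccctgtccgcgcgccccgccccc
Mag, chr7:30914864-30915113, minus strand: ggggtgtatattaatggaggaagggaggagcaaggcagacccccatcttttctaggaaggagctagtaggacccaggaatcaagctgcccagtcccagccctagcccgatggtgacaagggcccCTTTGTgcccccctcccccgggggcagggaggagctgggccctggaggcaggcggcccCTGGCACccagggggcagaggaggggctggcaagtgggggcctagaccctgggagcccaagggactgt
Mobp, chr9:120149492-120149741, plus strand: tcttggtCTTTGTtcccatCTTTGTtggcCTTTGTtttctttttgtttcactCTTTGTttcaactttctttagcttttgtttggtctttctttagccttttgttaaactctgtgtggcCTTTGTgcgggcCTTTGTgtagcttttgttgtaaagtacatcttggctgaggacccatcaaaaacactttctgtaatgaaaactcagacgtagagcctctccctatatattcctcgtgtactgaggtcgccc

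Cnp and Mag each held 1 match of both kinds in the windows shown, and Mobp held 6 matches to the Sox core, all on the other strand, and none to the Myrf core. Of the other members with an entry, Opalin held 1 Sox match and Mog 1 Myrf match (CTGGTAC), and Mal, Cldn11 and Ermn held none. Of all 32851 promoters of this length, 16.5% held the Sox core and 5.93% the Myrf core, so that a Sox match is common and a Myrf match less so. Mag has 3 starts in this table, of which the first is shown. The window of the second, which overlaps it, held the same pair of matches, and that of the third held none. A match describes letters in this window and says nothing of binding.

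In oligodendrocytes the 9 genes together made up 43724 CPM on the fresh plate (interval 41141 to 46427), and after fixation they made up 56404 CPM (54867 to 57972). Every oligodendrocyte held Mbp, Mag, Cnp, Cldn11 and Mobp. On the fresh plate the order of the levels was Cldn11 at 9534 CPM, Mal at 8171, Mbp at 7864, Cnp at 7671, Mag at 3543, Mog at 2804, Mobp at 1907, Opalin at 1297 and Ermn at 932. On the MeOH-fixed plate it was Cldn11 at 12491 CPM, Mbp at 11053, Cnp at 9838, Mal at 8832, Mag at 5053, Mobp at 3573, Mog at 3125, Ermn at 1500 and Opalin at 941. The 4 genes at the top were the same on both plates. On the fresh plate the counting intervals of all 4, Cldn11, Mal, Mbp and Cnp, overlapped each other, and each of the 5 lower genes overlapped the next of them in the order. On the MeOH-fixed plate the interval of Cldn11 (11772 to 13241) lay just above that of Mbp (10378 to 11760), while Mbp overlapped Cnp, Cnp overlapped Mal, and Mobp overlapped Mog.

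The single cells varied around these sums. The 2 fresh oligodendrocytes held 126 and 66 UMIs of Mbp (6375 and 14280 CPM), and the 13 MeOH-fixed ones from 14 to 186 with a median of 54 (3455 to 20426 CPM, median 8981). Both fresh cells lay inside the range of the MeOH-fixed cells. Cldn11 had the narrowest span among MeOH-fixed cells as highest over lowest level, from 8968 to 18879 CPM (median 11944), with 8078 and 15808 CPM in the fresh cells. Mal ran from 0 to 13955 CPM (median 8654) on the MeOH-fixed plate, where 1 cell held none, against 7612 and 10579 CPM in the fresh cells. Opalin and Ermn were missing from 4 and 2 of the MeOH-fixed oligodendrocytes and present in both fresh ones, although the lowest fresh count was 2 UMIs for Ermn.

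The members did not vary together across cells. In 2 MeOH-fixed oligodendrocytes the counts fell into 2 blocks, with Mbp, Mag, Cnp and Cldn11 high and Mobp, Mog, Mal, Ermn and Opalin almost absent. One of them (cell 4 of the MeOH-fixed oligodendrocytes, numbered from the highest member count) had 149 UMIs of Mbp, 77 of Mag, 138 of Cnp and 112 of Cldn11, but 5 of Mobp, 1 of Mog, 1 of Mal and 0 of Ermn and Opalin. The other (cell 6) had 186 UMIs of Mbp, 34 of Mag, 71 of Cnp and 125 of Cldn11, but 1 of Mobp and 0 of Mog, Mal, Ermn and Opalin. Of their member UMIs, 1.45% and 0.240% came from the 5 genes Mobp, Mog, Mal, Ermn and Opalin, whereas in the other 13 oligodendrocytes of both plates the share was 20.9% to 45.7% (median 36.5%). Both blocks were made after the values were seen, so the shares only describe them. Depth does not separate these cells from the rest, as they held 8822 and 9286 UMIs and the others 1967 to 19671.

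**Figure D1:**
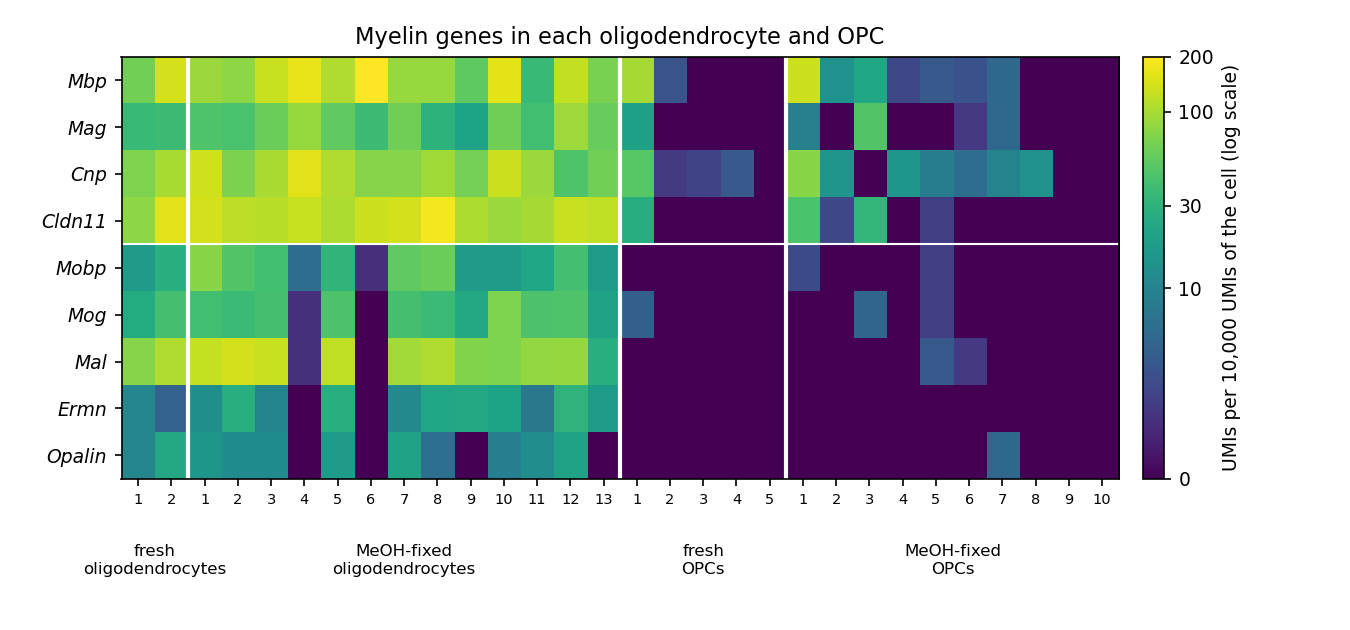
Each column is a filtered cell, oligodendrocytes and OPCs of the fresh and the MeOH-fixed plate, numbered by descending member UMIs within its group, and each row a myelin gene. Colour gives UMIs per 10,000 UMIs of the cell on a log scale, and columns 4 and 6 of the MeOH-fixed oligodendrocytes are bright in the upper 4 rows and dark in the lower 5, as are the first columns of both OPC groups.

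The same 2 cells differed from the other oligodendrocytes in genes outside the members. Of 8 genes of newly formed oligodendrocytes they held 51 and 97 UMIs in sum, against 0 to 8 (median 1) in the remaining 13 cells. Enpp6, a choline phosphodiesterase that marks newly formed oligodendrocytes, had 1 and 22 UMIs in them and 0 in all 13 others. Itpr2, a calcium channel of the endoplasmic reticulum, had 3 and 10 against 0, and Rras2, a small GTPase, 12 and 4 against 0. Some genes of later oligodendrocytes ran the other way. Car2, a carbonic anhydrase, had 0 and 1 UMIs in the 2 cells and 7 to 90 in the others. Trf, the iron carrier transferrin, had 3 and 4 UMIs against 11 to 126, and the lipid carrier Apod 0 in both against 3 to 68. Other such genes did not separate the cells. Ugt8a had 9 and 13 UMIs, within 0 to 37 in the others. Aspa and Gjb1 were at 0 in both, but ran from 0 to 14 and from 0 to 6 in the others. Myrf and Sox10 were present in all of these cells, with 12 and 19 UMIs of Myrf in the 2 cells and 1 to 15 in the others. Markers of identities outside the oligodendrocyte lineage took 0.170% and 0.290% of the counts of the 2 cells, within the range of 0.0246% to 0.374% in the others. Pdgfra and Cspg4, which define OPCs, had no UMI in either. Doublets were not called.

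Among the OPCs, most member counts came from 1 cell per plate, and these cells had the same division. The first fresh OPC held 498 of the 504 member UMIs of its group, with 245 of Mbp, 126 of Cnp, 67 of Cldn11, 50 of Mag and 10 of Mog, and none of Mobp, Mal, Ermn or Opalin. It was also the deepest OPC, with 25296 UMIs, and held 58 UMIs of Enpp6, 33 of Bmp4, a secreted signal of committed progenitors, and 96 of Gpr17, a receptor of the same stage. Of the OPC marker list it had no Pdgfra and no Cspg4, which goes against its annotation. Other genes of that list were present, with 56 UMIs of Sox10 and 30 of the sialidase Neu4. Sox10 was counted in oligodendrocytes too, whereas Neu4 was not. The other 4 fresh OPCs held 0 to 3 member UMIs each, with 3 to 57 of Pdgfra. The first MeOH-fixed OPC held 117 of 213 member UMIs, with 59 of Mbp, 34 of Cnp, 19 of Cldn11, 4 of Mag and 1 of Mobp. It likewise had no Pdgfra and no Cspg4, but 10 UMIs of Sox10 and 2 of Neu4. The second had 29 member UMIs and the third 23, the latter with 10 of Mag. Pdgfra was at 0 in both of these too, Cspg4 had 2 UMIs in the second and 0 in the third, and the remaining 7 had 0 to 16 member UMIs and 6 to 22 of Pdgfra. Over all OPCs, the 5 genes Mobp, Mog, Mal, Ermn and Opalin gave 1.98% of the member UMIs on the fresh plate (exact interval from 0.955 to 3.62%) and, among MeOH-fixed OPCs, 3.76% (from 1.64 to 7.27%).

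Cnp was the member most often seen in OPCs that had few others. It was counted in 4 of 5 fresh and 7 of 10 MeOH-fixed OPCs. In the fourth MeOH-fixed OPC 14 of 16 member UMIs were Cnp, beside 80 UMIs of Gpr17, and in the second 14 of 29 were Cnp and 13 Mbp. Mbp was counted in 2 of 5 and 7 of 10 OPCs. Ermn was at 0 in all OPCs of both plates, and Opalin had a single UMI among them.

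Between the plates, the sum of the members in oligodendrocytes was higher by 0.37 on the log2 scale on the MeOH-fixed plate (interval of counting error 0.27 to 0.46). In summed CPM none of the 9 genes reached a ratio of 2 in either direction, where 22.9% of the 924 genes with at least 20 UMIs in these cells were at least 2-fold higher on the MeOH-fixed plate and 8.33% at least 2-fold lower. By other measures Ermn and Opalin did pass it. The log2 ratio of Ermn was 1.12 as a mean of the CPM of each cell. Without the cell of each plate with the most counts of the gene itself, which leaves 1 fresh cell, it was 1.58 for Ermn and -1.48 for Opalin. The MeOH-fixed cell left out was not the same for both genes. For Opalin it was also -1.28 as a mean count per cell and -1.20 per spike-in count. The median log2 ratio of the members was 0.39 and that of all these genes 0.20. Mobp had the highest log2 ratio at 0.91 (0.46 to 1.38) and Opalin the lowest at -0.46 (-1.06 to 0.17). Mal at 0.11 and Mog at 0.16 were closest to 0, with intervals that span it. The fresh side of each ratio rests on 2 cells, and the sum of the members turned to -0.23 when the cell with the most member counts was left out on each plate and to -0.44 as a mean count per cell, so that no direction was shown for it. Mitochondrial counts made up 3.07 to 14.4% in the MeOH-fixed oligodendrocytes and more in both fresh ones (19.3% in the higher), and their part in the ratios was not tested beyond leaving them out of the total, which gave 0.22. Which cells were sampled and how they were preserved cannot be told apart, as both cells with few Mobp, Mog and Mal counts were on the MeOH-fixed plate.

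Over all filtered cells the picture was another one. The members summed to 3104 CPM on the fresh and 7693 CPM on the MeOH-fixed plate, and 8 of 9 genes were at least 2-fold higher on the MeOH-fixed plate, where 11.0% of 8804 genes were higher by that factor and 8.87% lower. The exception was Mbp, at 889 and 1618 CPM, a log2 ratio of 0.86 (0.71 to 1.02). Mobp, with 94.3 and 461 CPM, had the highest log2 ratio at 2.29 (1.86 to 2.74), followed by Ermn at 2.03. Oligodendrocytes made up 3.13% of the cells and 4.55% of the UMIs on the fresh plate, and 9.85% and 12.4% on the other. Without them the sum of the members was 1164 CPM on the fresh and 764 CPM on the MeOH-fixed plate (log2 ratio -0.61), and without OPCs as well it was 189 and 466 CPM (log2 ratio 1.31).

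**Figure D2:**
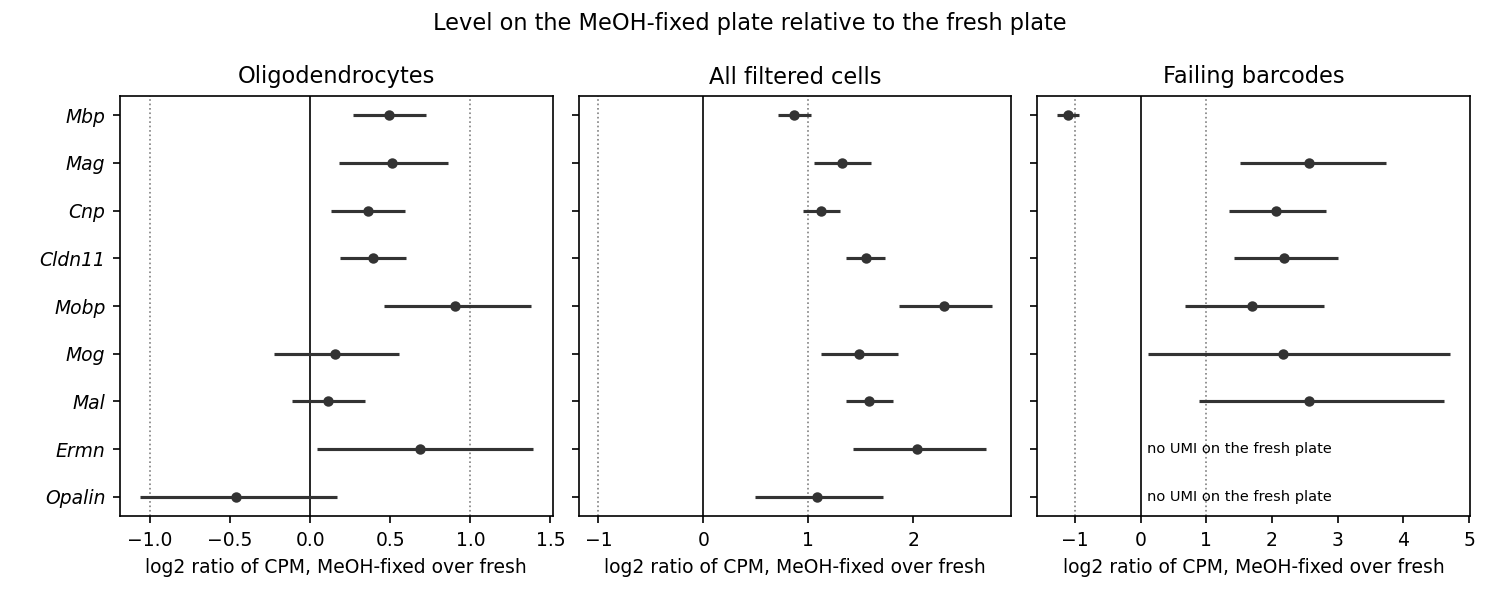
The log2 ratio of CPM, MeOH-fixed over fresh, is plotted for each member in oligodendrocytes, in all filtered cells and in failing barcodes, with the exact 95% interval of counting error as a bar and dotted lines at a ratio of 2 in either direction. No point in oligodendrocytes passes a dotted line, 8 of 9 do so in all filtered cells, and Mbp alone lies left of 0 in failing barcodes.

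In cells outside the oligodendrocyte lineage the members were at low levels and uneven. Of the 1660 member UMIs of fresh filtered cells, 1068 were in oligodendrocytes (64.3%) and 504 in OPCs, and of 5597 in MeOH-fixed cells 5106 were in oligodendrocytes (91.2%) and 213 in OPCs. Mal was the member most restricted to oligodendrocytes on both plates among those with over 100 UMIs, with 199 of 201 UMIs there on the fresh and 797 of 815 on the MeOH-fixed plate, and Mbp the least, with 192 of 472 and 998 of 1175. Of the 280 fresh Mbp UMIs outside oligodendrocytes, however, 247 were in OPCs, and 245 of these in the first fresh OPC. Oligodendrocytes and OPCs together held 93.0% of the fresh Mbp UMIs, and 92.2% of those of Cnp. On the MeOH-fixed plate this joint share was lowest for Mbp, at 92.1%. All 32 fresh Opalin UMIs were in oligodendrocytes, which puts its level there at least 224-fold above the floor of 3 counts over the other fresh cells. Relative to the other cells without OPCs, MeOH-fixed oligodendrocytes had 70.8 times the level of Mbp (57.2 to 88.6), 113 times that of Cnp (85.2 to 152) and 351 times that of Mal (212 to 630). On the fresh plate the same ratios were 111 for Mbp (76.5 to 166), 132 for Cnp (88.2 to 206) and, from 2 UMIs outside oligodendrocytes, 1905 for Mal (521 to 15843).

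Among cells other than oligodendrocytes, 69.4% held a member UMI when fresh and 80.7% when MeOH-fixed. These shares depend on depth, with median transcripts of 6332 and 3160 per cell. After each cell was thinned to 800 UMIs, which left out none, 16 of 62 fresh cells (25.8%, interval 15.5 to 38.5%) and 49 of 119 MeOH-fixed cells (41.2%, 32.2 to 50.6%) had one. After thinning, microglia gave 3 of 10 fresh and 4 of 7 MeOH-fixed cells. Endothelial cells gave 0 of 6 fresh (interval up to 45.9%) and 4 of 8 MeOH-fixed cells. Median depths of these 2 identities were 5116 and 3229 transcripts on the fresh and 2141 and 2055 on the MeOH-fixed plate. In the MeOH-fixed endothelial cells 4 of the 5 thinned member UMIs were Mal and 0 were Mbp. Their share is therefore no background for the other members. For Mbp alone, thinned MeOH-fixed cells with a count were 9 of 44 neurons, 2 of 7 microglia and 0 of 8 endothelial cells. The shares for all 9 members in neurons, 2 of 7 and 14 of 44, and in astrocytes and RGLs, 5 of 18 and 13 of 29, did not exceed those of microglia and endothelial cells beyond counting error. The groups set against them have 6 to 10 cells and wide intervals, and no expression is read from these shares.

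The make-up of these counts differed among identities. In MeOH-fixed neurons, immature and mature together, Mbp gave 72 of 155 member UMIs and Mal 2, whereas the oligodendrocytes of that plate had 998 and 797. In MeOH-fixed endothelial cells it was reversed, with 8 UMIs of Mal and 0 of Mbp among 15. Mal was present in 5 of these 8 cells at 387 CPM (167 to 763). In astrocytes and RGLs Cnp led, with 22 of 42 member UMIs on the fresh plate (52.4%, 36.4 to 68.0%) and 15 of 47 on the MeOH-fixed plate, where Mbp gave 10 and 7. These identities therefore did not hold the members in the ratio found in oligodendrocytes. This does not extend to all identities. In MeOH-fixed neural intermediate progenitor cells and neuroblasts, with 44 member UMIs, the wide intervals spanned the oligodendrocyte shares. There Mbp gave 13.6% (5.17 to 27.4%) and Mal 6.82% (1.43 to 18.7%), beside 19.5% and 15.6% in oligodendrocytes of that plate. The Mbp gene also gives golli transcripts, and 3′ counts by gene do not separate these from the myelin forms.

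**Figure D3:**
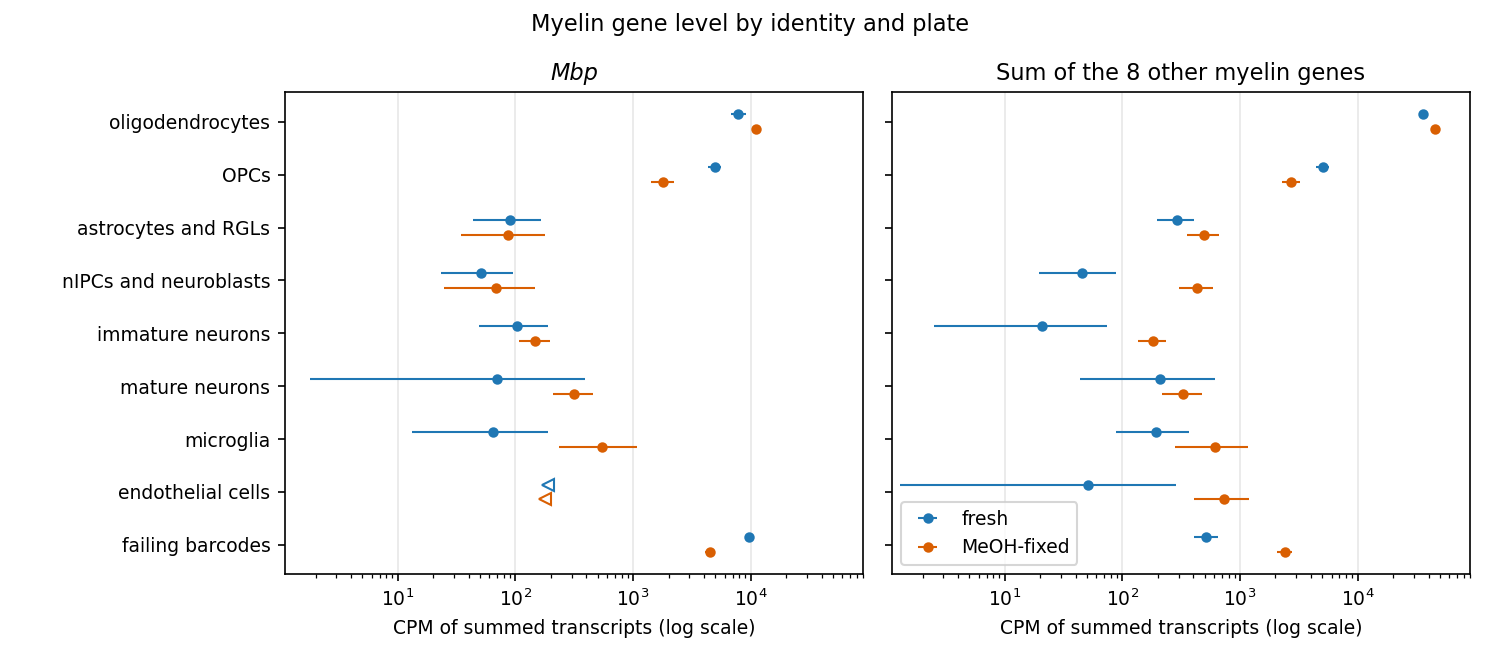
Points are CPM, on a log axis, of Mbp (left) and of the other 8 members summed (right) for each identity and for failing barcodes, fresh and MeOH-fixed, with exact 95% Poisson intervals as bars and open triangles at the upper limit where no UMI was counted. Mbp reaches 9660 CPM in fresh failing barcodes, beside 7864 CPM in fresh oligodendrocytes, while the other 8 genes lie at 515 and 35860 CPM.

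The failing barcodes held the most uneven member counts. On the fresh plate Mbp had 1366 UMIs there, 9660 CPM (9154 to 10186), more per transcript than in the fresh oligodendrocytes themselves, and the other 8 members together had 73 UMIs. Cnp followed with 23 UMIs, Cldn11 with 20, Mobp with 13, Mag with 10, Mal with 4 and Mog with 3, and Ermn and Opalin had none. Mbp thus gave 94.9% of the member UMIs (93.7 to 96.0%) in fresh failing barcodes against 18.0% in fresh oligodendrocytes. Per UMI of the other 8 members there were 18.7 of Mbp in the failing barcodes and 0.219 in the oligodendrocytes. Without mitochondrially encoded genes, Mbp ranked 2nd of all genes in fresh failing barcodes, 63rd in the filtered cells and 7th in the oligodendrocytes. Of all Mbp UMIs of the fresh plate, 74.3% were in failing barcodes, compared with 5.79% of the UMIs of the other 8 members and 20.8% of all UMIs.

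On the MeOH-fixed plate the same unevenness was smaller. Mbp had 377 UMIs in failing barcodes, 4485 CPM (4044 to 4962), and the other 8 members 201, led by Cnp with 57, Cldn11 with 54, Mag with 35 and Mobp with 25. Mbp gave 65.2% of the member UMIs (61.2 to 69.1%), or 1.88 UMIs per UMI of the other 8, against 0.243 in the oligodendrocytes. It ranked 11th outside the mitochondrial genes, and 24.3% of its UMIs on the plate were in failing barcodes, compared with 4.35% for the other 8 members and 10.3% of all UMIs. From the fresh to the MeOH-fixed plate the CPM in failing barcodes was thus lower for Mbp, by -1.11 in log2 (-1.28 to -0.94), and higher for Mobp, Mag, Cnp and Cldn11, with log2 ratios from 1.69 to 2.56. Mog, with 3 and 8 UMIs, and Mal, with 4 and 14, had log2 ratios of 2.17 (0.11 to 4.71) and 2.56 (0.89 to 4.62). The fresh total behind these CPM includes the barcode of 45332 transcripts, whose part in the ratios was not tested.

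**Figure D4:**
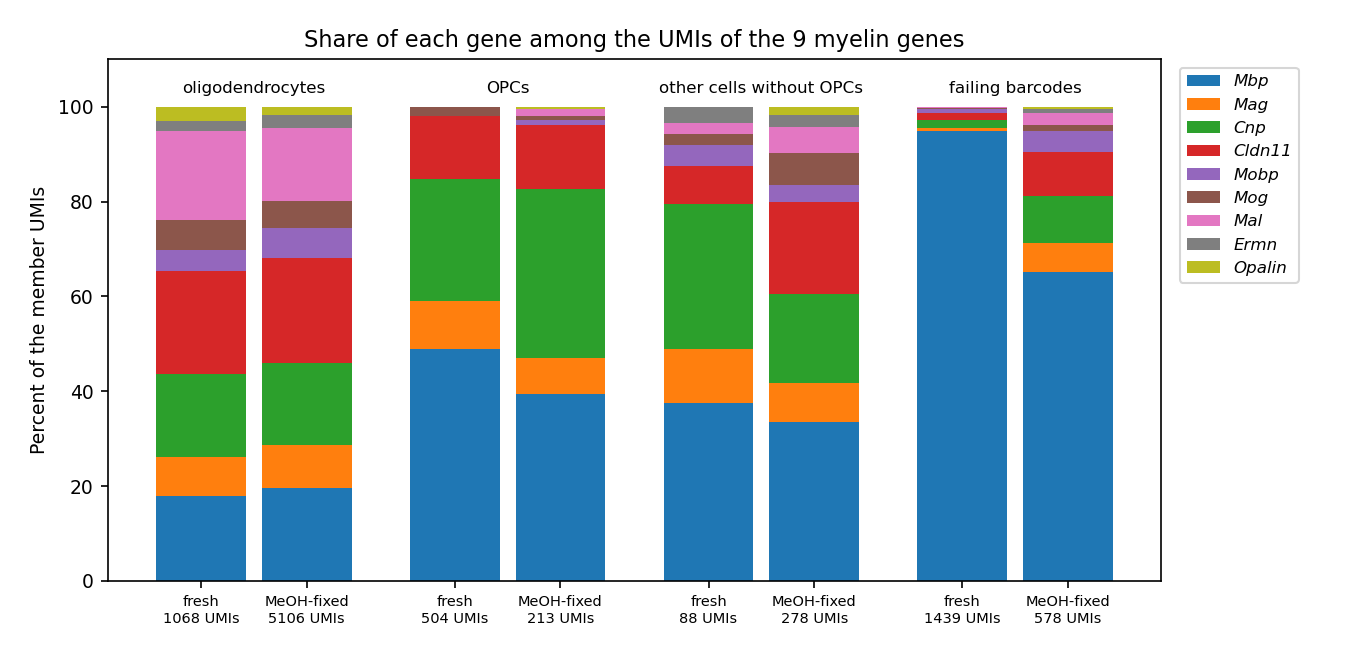
Stacked bars give the percentage of each gene among the UMIs of the 9 members in oligodendrocytes, OPCs, the remaining filtered cells and failing barcodes, for the fresh and the MeOH-fixed plate, with the number of UMIs under each bar. Mbp takes 18.0% and 19.5% in oligodendrocytes and 94.9% and 65.2% in failing barcodes.

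Set against the filtered cells of the same plate, Mbp was the single member at least 2-fold higher in failing barcodes, on both plates, where 3.41% of 5959 genes on the fresh and 2.57% of 6818 genes on the MeOH-fixed plate were so. Of the others, 7 were at least 2-fold lower on the fresh plate, where 41.7% of genes were, and 6 on the MeOH-fixed plate, where 58.0% of genes were. Mobp was the member outside these counts on both plates, with 91.8 CPM in fresh failing barcodes beside 94.3 CPM in fresh filtered cells.

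The excess of Mbp was spread over many barcodes. It was counted in 152 of the 320 fresh failing barcodes, and 60 of them held at least 10 UMIs, with 1019 UMIs of Mbp and 16 of the other 8 members in all. Of these 60 barcodes, 48 had no UMI of the other 8 members and 57 had at most 1. The highest had 47 UMIs of Mbp among 821, and another had 46 among 170, or 27.2% of its transcripts, each without any other member. The 60 barcodes were small, with 88 to 1647 UMIs and a median of 231.5, and 50.4% of their counts (median) were mitochondrial, beside 44.5% over all fresh failing barcodes. By size, Mbp stood at 9146 CPM in fresh failing barcodes under 100 transcripts, at 43314 CPM from 100 to 200, at 28787 CPM from 200 to 400, at 7580 CPM from 400 to 800 and at 1110 CPM from 800 on. The last group includes the barcode of 45332 transcripts. The value under 100 transcripts rests on 57 UMIs, and its interval (6927 to 11850) spans the 7864 CPM of fresh oligodendrocytes, whereas the intervals from 100 to 200 and from 200 to 400 transcripts lie above it.

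The MeOH-fixed failing barcodes had fewer such cases. Mbp was counted in 67 of 252, and 10 held at least 10 UMIs, of which 3 had no UMI of the other 8 members. These 10 barcodes had a median of 528.5 UMIs, and a median of 42.4% of their counts were mitochondrial, beside 26.7% over all failing barcodes of the plate. One failing barcode with 721 UMIs and 352 genes held all 9 members, with 10 UMIs each of Mbp and Cldn11, 6 of Cnp, 3 of Mag, 2 of Mal and 1 each of Mobp, Mog, Ermn and Opalin, and 15.7% mitochondrial counts. No fresh failing barcode had as many as 6 members. Whether the failing barcodes held damaged cells, fragments or free RNA was not tested, and the 8 wells left empty on each plate could not be told from the others here.

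**Figure D5:**
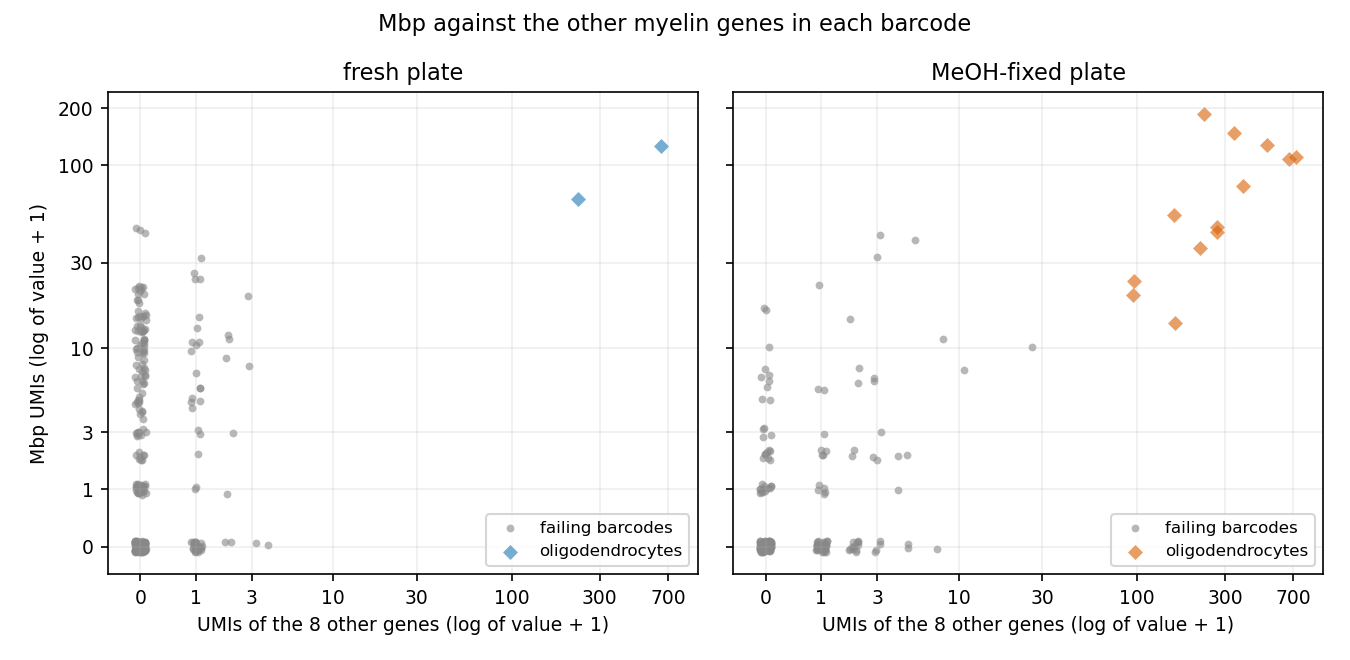
Each point is a barcode, with the UMIs of the other 8 members on the horizontal and those of Mbp on the vertical axis, both as the log of the value plus 1, with a slight random shift of the failing barcodes (grey) for visibility. Fresh failing barcodes form a column at 0 UMIs of the other genes that reaches 47 UMIs of Mbp, while the oligodendrocytes (diamonds) hold 66 to 126 UMIs of Mbp on the fresh and 14 to 186 on the MeOH-fixed plate together with many UMIs of the other genes.

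Other genes of the sheath and of oligodendrocytes gave a frame for these values. Of 12 further genes of the myelin membrane and adhesion, 11 had at least 20 UMIs in oligodendrocytes, of which 3 were at least 2-fold higher and 2 at least 2-fold lower on the MeOH-fixed plate, beside the 22.9% and 8.33% of all genes given above. Jam3, an adhesion molecule, had a log2 ratio of 1.68 and Cntn2, a contactin of the axon-glia junction, one of -1.39. Of 6 genes of myelin lipid and acetate metabolism, 5 could be compared, and 2 were at least 2-fold higher, among them Ugt8a, which makes the galactolipid of myelin, at 1.45 (0.82 to 2.16). None of 3 gap junction genes and none of 8 comparable genes of mature oligodendrocytes passed a ratio of 2. In the list of 6 genes named cytoskeletal 1 was higher, Bcas1 at 1.53 (-0.15 to 3.88), which rests on 3 fresh UMIs. Its level was higher in OPCs (1253 CPM fresh, 1565 CPM MeOH-fixed) than in oligodendrocytes (121 and 350 CPM), so no cytoskeletal change is read from it. Among 5 comparable transcription factors 1 was lower (Nkx6-2, -1.75). Of the 8 genes of newly formed oligodendrocytes, 7 had no UMI in the 2 fresh oligodendrocytes and Tmem163 had 2. In the MeOH-fixed oligodendrocytes, among them both cells with few Mobp, Mog and Mal counts, Enpp6 had 23 UMIs, Tcf7l2 30, Fyn 31 and Tmem163 35. These 4 genes reached 20 UMIs through the MeOH-fixed plate alone, so no count of higher genes is given for this list.

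The genes most like the summed members over the 16 groups of identity and plate were found by the Pearson correlation of log2 CPM with a pseudocount of 10, over 5099 genes, as a description, since the groups share libraries and differ in depth. Outside the members the first was Ptgds, a prostaglandin synthase (r = 0.95), with 12542 CPM in fresh and 7372 CPM in MeOH-fixed oligodendrocytes. Ugt8a and Myrf followed (both r = 0.93), then Fa2h, which hydroxylates myelin lipids, and the uncharacterised 2810468N07Rik (both r = 0.90). Olig1, Sox10, the semaphorin receptor Plxnb3 and the creatine enzyme Gamt closed the list (r from 0.87 to 0.88). Among the members themselves Cnp (r = 0.98) and Cldn11 (0.97) lay closest to the sum, and Ermn (0.67), Mal (0.72) and Mobp (0.76) farthest. Each member is itself part of that sum, so these values set a part against the whole.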

How the data were processed

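SORT-seq libraries of 1 fresh and 1 MeOH-fixed plate were used, grouped by the sample titles. Per the paper's methods, the authors mapped reads to GRCm38 with STAR, discarded multi-mapped reads, and deposited estimated (expected) counts, in which UMI numbers are corrected for the chance of sharing one of 4096 UMIs, before and after filtering (800 to 35000 transcripts, over 500 genes, further limits on transcripts per gene and spike-ins). The whole UMIs behind the deposited expected counts were recovered by inverting the adjustment (largest distance from a whole number 3.64e-12). CPM was taken from the deposited values, and intervals from the UMIs: exact Poisson for sums, Clopper-Pearson for shares and, conditionally, for ratios, all at 95% and for counting error only. Of the barcode numbers of filtered cells, 24 occurred on both plates, which are separate libraries. Genes of the lists and of the background were compared where 20 UMIs were counted over both groups, and members at any count. In simulated Poisson counts drawn from the pooled oligodendrocytes (924 genes), 95% of genes raised 4-fold and 8.84% of unchanged ones passed a ratio of 2 in the higher direction. The simulation holds counting error and no variation between cells, so these shares are not error rates for 2 fresh cells. Cells were thinned without replacement with a fixed seed. Members, lists and markers were chosen with earlier results of these data known, and the named genes were the members, the 10 others most correlated with their sum and examples from the lists. The division into 4 and 5 members was made after the values were seen, and some genes that meet the rule are not reported here. Exons of Cnp overlap those of Dnajc7 on the opposite strand. The strand setting of the counting is not given in the sources used here. Promoters were found for 8 of 9 members. The tools were matplotlib 3.10.9, scipy 1.17.1, pandas 2.3.3 and numpy 2.4.6 in Python 3.11.15.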

Additional observations from a re-analysis of the deposited data

Results flagged for a closer look

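In OPCs the summed members and the 4 genes Mbp, Mag, Cnp and Cldn11 had plate ratios of the opposite sign from oligodendrocytes, which was not tested. Taken as MeOH-fixed over fresh, the log2 ratio was -1.48 for Mbp, -1.53 for Mag, -0.68 for Cnp and -1.10 for Cldn11 in OPCs, and -1.15 for all 9 members, where the same genes had ratios from 0.36 to 0.51 and a sum of 0.37 in oligodendrocytes. Of the others, Mog had 10 fresh and 2 MeOH-fixed UMIs in OPCs, Mobp 0 and 2, Mal 0 and 3, Opalin 0 and 1, and Ermn none. The first fresh OPC, without Pdgfra and Cspg4, held 498 of the 504 fresh member UMIs, and the other 4 fresh OPCs held 0 to 3 each.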

How the results depend on the processing

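No paired analysis was possible because each condition has 1 library. Of 50 alternative values of the main results, 19 kept to the value given, 30 moved outside its counting interval (or 1.5 times for a count) and 1 reversed, and the cause was not tested. The log2 ratio of the summed members in oligodendrocytes was 0.22 without mitochondrial genes in the total, -0.23 without the cell of each plate with the most member counts, -0.44 as mean count per cell, 0.10 as mean of the CPM of each cell and -0.37 per spike-in count. Over all filtered cells it was 1.95 without those cells, 0.70 as mean count per cell, 0.24 with equal weight for each identity (Opalin -0.22), and -0.61 without oligodendrocytes (Mbp -1.01, Mag -0.94, Cnp -0.62 and Cldn11 -0.16, but Mog 0.49, Ermn 0.91, Mobp 1.27 and Mal 2.86), the latter an alternative chosen after seeing the data. Without mitochondrial genes in the total the members stood at 52427 (fresh) and 61075 CPM (MeOH-fixed) in oligodendrocytes and at 17258 and 9637 CPM in failing barcodes. In failing barcodes under 800 transcripts they stood at 24960 and 9298 CPM, and without Mbp in all failing barcodes at 515 and 2387 CPM. In cells other than oligodendrocytes the level was 191 and 585 CPM without the cell with the most member counts, 189 and 466 CPM without OPCs, and 608 and 488 CPM without Mbp, so that the higher fresh level rests on 1 OPC. The share of such cells with a member UMI was 69.4% and 80.7% without thinning and, thinned to 2000 UMIs, 30.9% of fresh (19.1 to 44.8%) and 63.0% of MeOH-fixed cells (52.3 to 72.9%), which left out 7 and 27 cells, so that these intervals do not overlap, whereas those at 800 UMIs do. As a mean over barcodes the share of Mbp was 37.8% and 27.9% in these cells and 81.4% and 42.6% in failing barcodes. With plates pooled, 6 of the 10 genes most like the members were named again. The 2 fresh oligodendrocytes limit every ratio in that identity.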
